A study of Homo sapiens with 66 samples.

Results

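Red cells carry oxygen on hemoglobin, a tetramer of globin chains that each hold a heme group. Globin genes lie in clusters that are switched on in turn from embryo to adult, and heme is made in a chain of enzyme steps that begins and ends in the mitochondrion and passes through the cytosol in between. Heme is also needed outside the red cell lineage for cytochromes and other enzymes, so most cells express the pathway. The 9 genes described here are HBE1 (epsilon-globin, an embryonic beta-type chain), HBD (delta-globin, a minor adult beta-type chain), ANK1 (ankyrin 1, which ties the spectrin skeleton to the red cell membrane) and the heme enzymes ALAS1, ALAD, UROS, UROD, CPOX and FECH. They were chosen by symbol through GENCODE 29, with earlier results of these libraries in view: part of them had been seen to be high in the DMSO libraries of the MED31 line. All 9 had a row among the 13331 genes of the count table, and all 9 passed the filter on low counts that left 12515 genes for testing. HBE1 passed it through 10 libraries, ANK1 through 11 and HBD through 15, and 6 of these were MED31 libraries in each case.

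The cells were KBM7, a near-haploid line from chronic myeloid leukemia. In 9 engineered lines, labelled MED31-dTAG, MED14-dTAG, MED12-dTAG, MED6-dTAG, MED28-dTAG, MED10-dTAG, MED26-dTAG, MED1-dTAG and CDK9-dTAG, 1 protein carried a tag that the compound dTAG7 directs to degradation, and each line received 500 nM dTAG7 or DMSO for 6 h. Wild-type KBM7 cells received 500 nM dTAG7, 250 nM THAL-SNS-032 (a degrader of CDK9), 100 nM dBET6 (a degrader of BET bromodomain proteins) or DMSO for 6 h. The MED proteins are subunits of Mediator, which links transcription factors to RNA polymerase II, and CDK9 is the kinase that releases paused polymerase. QuantSeq, which reads the 3′ ends of polyadenylated RNA, gave 66 libraries, 3 in each of 22 groups. The labels name 1 line per tagged protein and do not say how many clones it came from, so a property of a line cannot be told apart from a property of its tag. Each group's 3 libraries came from parallel wells, so a p-value is set against the spread between wells, which may be technical.

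Endogenous counts ran from 439261 to 4337368 per library (median 3016290.5) and spike-in counts from 10950 to 72684. Equal spike-in RNA had gone into every lysate, so levels are given as spike-in CPM, a gene's count divided by the library's spike-in total and scaled to CPM of a typical DMSO library. Fewer cells and less RNA per cell cannot be told apart on this scale. TMM scaling, which assumes that most genes do not change, is given where it alters a result. Endogenous RNA per spike-in fell to 11.3% of the DMSO level with dBET6, 17.6% with THAL-SNS-032 and 19.2% with dTAG7 in the CDK9 line. It was 63.2% in the MED14 line with dTAG7 and 82.3% to 106% in the other 8 dTAG7 groups. DMSO replicate B of the MED12 line and dTAG7 replicate A of the MED6 line stood farthest from their replicates. A gene is called at an adjusted p (Benjamini-Hochberg over all genes tested) under 0.05 in edgeR's quasi-likelihood F test, and fold changes are log2 values ± SE from that fit with 3 libraries per group. The KBM7 label was set against marker genes: of 15 red cell markers 4 had a row, of 11 megakaryocyte markers 1, and of 10 granulocyte markers 3.

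In DMSO, HBE1, HBD and ANK1 were high in the MED31 line and near the detection limit in most other lines. These levels are what the genes were selected on, so they are described and not tested. HBE1 (chr11:5268345-5505652, minus strand, hg38) had 159, 194 and 179 spike-in CPM in the MED31 DMSO libraries, from 466, 709 and 563 counts. In wild-type DMSO libraries it had 0.629, 0.439 and 1.21 spike-in CPM, from 2, 1 and 4 counts. HBD (chr11:5232678-5243657, minus strand) had 101, 144 and 141.5 spike-in CPM in MED31 DMSO libraries and 0.315, 0.439 and 1.81 in wild-type DMSO libraries. ANK1 (chr8:41653220-41896762, minus strand) had 58.5, 67.0 and 67.9 spike-in CPM in MED31 DMSO libraries and 0.315, 0.439 and 0.604 in wild-type DMSO libraries. Not 1 of the 27 DMSO libraries of the other 9 lines, wild type included, reached the lowest MED31 library for any of these genes. Group means in the MED31 line were 177 ± 17.7 for HBE1, 129 ± 24.2 for HBD and 64.5 ± 5.16 spike-in CPM for ANK1 (SD, n = 3). The medians of the other 9 line means were 0.328, 1.03 and 0.526 spike-in CPM for the same genes in that order.

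The second-highest line was the same for all 3 genes. In MED14 DMSO libraries HBE1 averaged 3.68 ± 0.938, HBD 10.3 ± 1.999 and ANK1 3.75 ± 0.0692 spike-in CPM (SD, n = 3). The MED12 line came next for HBD, at 5.52 ± 1.23 spike-in CPM, and for ANK1, at 2.83 ± 1.04. All 3 MED14 libraries lay above all 3 MED12 libraries for HBD, but not for ANK1, where MED12 replicate A had 3.88 spike-in CPM and the highest MED14 library 3.82. For HBE1 the MED12 line was at 0.201 ± 0.348 spike-in CPM, and the MED6 line came after MED14, at 1.65 ± 1.60 with libraries from 0 to 3.20. Below these, line means ran from 0.108 to 0.759 for HBE1, from 0.327 to 1.53 for HBD and from 0.217 to 1.097 for ANK1, and neighbours in that order overlapped. Such levels rest on 0 to 6 counts per library. Over the 6 wild-type libraries with dTAG7 or DMSO, mean counts were 0.432%, 0.777% and 0.743% of the MED31 mean for HBE1, HBD and ANK1. CALB1, another gene high in the MED31 line, had 0.463% there. Whether such counts are reads carried over between pooled libraries was not tested.

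**Figure D1:**
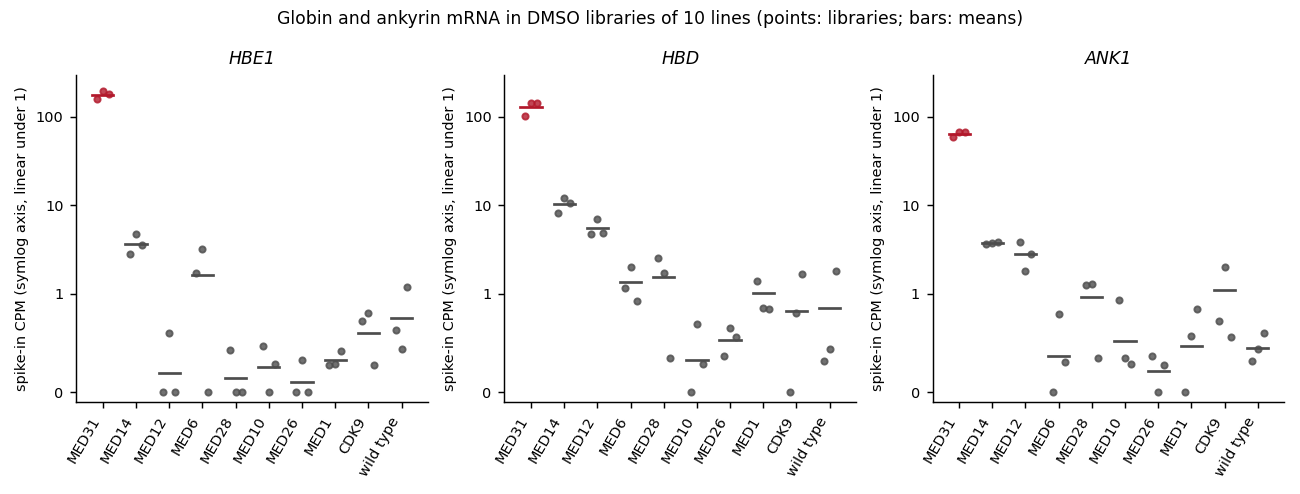
Spike-in CPM of HBE1, HBD and ANK1 in each of the 30 DMSO libraries by line (points; bars are means of 3), on an axis that is logarithmic above 1 and linear below. MED31 libraries sit between 58.5 and 194, and the MED14 and MED12 lines stand above most other lines for HBD and ANK1.

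Among the 6 heme enzymes of the 9 genes, CPOX alone stood clear of the other lines in the MED31 DMSO group. CPOX (chr3:98579446-98593723, minus strand), coproporphyrinogen oxidase of the mitochondrial intermembrane space, had 174, 106 and 137 spike-in CPM in MED31 DMSO libraries. It had 53.5, 81.2 and 73.1 in wild-type DMSO libraries, and the highest of the other 9 lines, MED28, averaged 72.8 ± 9.05 (SD, n = 3). ALAS1 (chr3:52198086-52214327, plus strand), the housekeeping form of the first and rate-limiting enzyme, averaged 21.0 ± 3.07 spike-in CPM in the MED31 line and 13.9 ± 1.78 in wild type (SD, n = 3). The ALAS1 mean was the highest of the 10 lines, but 5 of the 27 libraries of other lines reached the lowest MED31 library. FECH (chr18:57548283-57586772, minus strand), ferrochelatase, which inserts iron into the ring, ranked second at 48.9 ± 5.38 spike-in CPM, below the MED28 line at 51.9 ± 1.62 (SD, n = 3). UROS (chr10:125784980-125823285, minus strand), which closes the ring, averaged 52.7 ± 1.27 spike-in CPM in the MED31 line and 52.7 ± 4.95 in wild type. UROD (chr1:45012147-45015575, plus strand), which removes carboxyl groups from uroporphyrinogen, averaged 79.9 ± 2.87 in the MED31 line and 79.3 ± 9.70 in wild type. ALAD (chr9:113386317-113401333, minus strand), which joins aminolevulinate units into porphobilinogen, averaged 6.82 ± 1.096 in the MED31 line, ninth of 10, and 9.33 ± 0.824 in wild type. Across the other 9 lines the highest mean was 1.28 times the lowest for CPOX and 1.31 times for ALAS1.

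**Figure D2:**
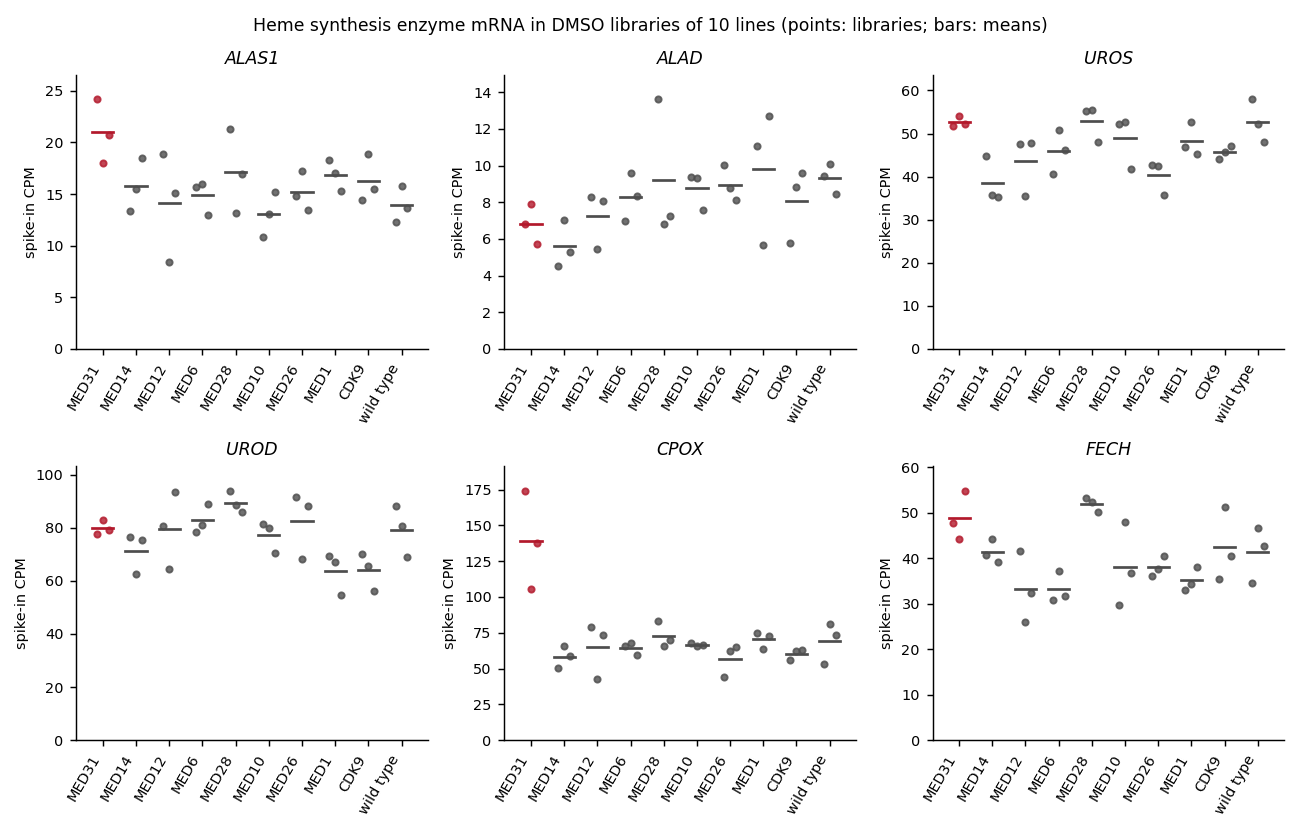
Spike-in CPM of 6 heme enzymes in each DMSO library by line (points; bars are means of 3; axes start at 0). The 3 CPOX values of the MED31 line, 106 to 174, are above all others, while UROS, UROD, ALAD and FECH overlap between lines.

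RefSeq start regions of HBD, CPOX and ALAS1 are shown to set a globin gene and a heme enzyme that were high in the MED31 line beside a heme enzyme whose MED31 libraries overlapped with other lines. Each is the 250 bases before the RefSeq start (GRCh38.p14), written 5′ to 3′ on the gene's strand. Capitals mark matches, on either strand, to the motif AGATAA, the motif AGATAG, the motif TGATAA or the motif TGATAG (here GATA matches, letters that GATA factors bind), to the motif CACCC (bound by KLF-type factors) and to the motif CCAAT.
HBD: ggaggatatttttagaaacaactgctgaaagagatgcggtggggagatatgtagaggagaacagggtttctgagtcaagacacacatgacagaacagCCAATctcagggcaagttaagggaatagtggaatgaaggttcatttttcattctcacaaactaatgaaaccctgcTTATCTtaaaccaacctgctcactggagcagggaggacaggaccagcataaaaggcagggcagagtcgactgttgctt
CPOX: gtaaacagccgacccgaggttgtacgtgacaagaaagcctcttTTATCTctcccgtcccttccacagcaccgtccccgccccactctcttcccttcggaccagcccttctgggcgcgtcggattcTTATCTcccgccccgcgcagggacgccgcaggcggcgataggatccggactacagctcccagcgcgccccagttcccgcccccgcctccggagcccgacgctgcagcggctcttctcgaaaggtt
ALAS1: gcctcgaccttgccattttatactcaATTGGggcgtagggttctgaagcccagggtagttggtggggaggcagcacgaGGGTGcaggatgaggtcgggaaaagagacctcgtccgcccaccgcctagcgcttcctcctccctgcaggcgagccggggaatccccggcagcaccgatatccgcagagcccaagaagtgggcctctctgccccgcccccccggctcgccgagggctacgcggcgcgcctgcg
The HBD window is chr11:5234484-5234733 (minus strand), the CPOX window chr3:98593612-98593861 (minus strand) and the ALAS1 window chr3:52197833-52198082 (plus strand). HBD held 1 GATA match on the opposite strand, 78 to 73 bases before the start, and 1 CCAAT, 153 to 149 bases before it. CPOX held 2 GATA matches on the opposite strand, 207 to 202 and 125 to 120 bases before the start. ALAS1 held 1 CACCC and 1 CCAAT, both on the opposite strand, and no GATA match. Of the 6 members with a sequence in the table, HBD and CPOX were the ones with a GATA match; the other 4 were ALAS1, ALAD, UROD and FECH. Over all 35116 start regions of the same length, 22.3% held a GATA match, 54.7% a CACCC and 32% a CCAAT. A match describes letters in this window and does not show binding.

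The dTAG7 libraries of the MED31 line and wild type were not used in choosing the genes, but came from the same lines. Genes picked as high in MED31 DMSO libraries would be high here too unless dTAG7 changed them. The p-values below thus set the difference against the spread between wells and are no independent support for it. HBE1, HBD, ANK1 and CPOX were called higher in the MED31 line with dTAG7 than in wild type with dTAG7. HBE1 had 130.1, 140.3 and 147 spike-in CPM in MED31 dTAG7 libraries, against 0.286, 0.884 and 1.07 in wild-type dTAG7 libraries. The groups lay far apart, with a fold change of 7.52 ± 0.35 and an edgeR adjusted p of 5.58e-26. HBD had 137, 93.9 and 99.8 spike-in CPM in MED31 dTAG7 libraries, against 1.71, 0 and 1.79 in wild-type dTAG7 libraries (6.55 ± 0.33, edgeR adjusted p 1.10e-24). ANK1 had 62.1, 47.1 and 53.8 spike-in CPM in MED31 dTAG7 libraries, against 0.286, 0 and 1.43 in wild-type dTAG7 libraries (6.61 ± 0.43, edgeR adjusted p 1.22e-19). For each of these genes every MED31 library was above every wild-type library. The wild-type levels behind these folds rest on 7, 11 and 5 counts over 3 libraries, for HBE1, HBD and ANK1 in that order.

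CPOX had 121, 159 and 173.5 spike-in CPM in MED31 dTAG7 libraries, against 88.5, 53.9 and 63.4 in wild-type dTAG7 libraries. Its rise of 1.14 ± 0.19 had an edgeR adjusted p of 8.36e-06. ALAS1 averaged 23.4 ± 2.19 spike-in CPM in MED31 dTAG7 libraries and 15.4 ± 3.81 in wild-type dTAG7 libraries (SD, n = 3). Its libraries did not overlap, but the difference of 0.59 ± 0.24 missed the threshold (edgeR adjusted p 0.0778). Under TMM it was called, at 0.64 ± 0.20 with an edgeR adjusted p of 0.0171. FECH averaged 57.0 ± 1.57 spike-in CPM in MED31 dTAG7 libraries and 46.0 ± 1.49 in wild-type dTAG7 libraries, a difference of 0.31 ± 0.17 that was not called (edgeR adjusted p 0.224). The differences of UROS, UROD and ALAD were 0.00 ± 0.12, 0.18 ± 0.17 and -0.30 ± 0.25, and none was called. In all, 4 of the 9 members rose and none fell, where 17.2% of all genes tested were called in either direction. Under TMM it was 5 of 9 and 19.6% of genes. Part of the members had been chosen as high in the MED31 line, so these counts partly restate that choice. HBE1, HBD and ANK1 also passed the filter on low counts without the MED31 libraries.

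**Figure D3:**
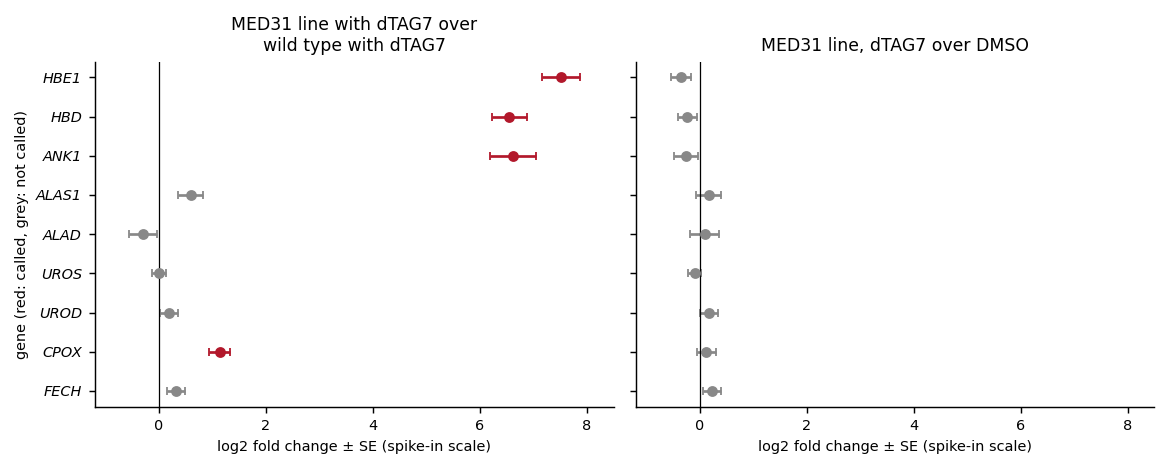
Log2 fold changes of the 9 genes (points ± SE, spike-in scale) in the MED31 line with dTAG7 over wild type with dTAG7 (left) and in the MED31 line with dTAG7 over DMSO (right). HBE1, HBD, ANK1 and CPOX are called on the left (red), and no gene is called on the right.

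Some related genes that were not members differed between the same libraries. HBG2 (gamma-globin, a fetal chain), which overlaps HBE1 on the same strand in GENCODE 29, had 421 counts in the 3 MED31 dTAG7 libraries and 0 in the 3 wild-type dTAG7 libraries. How the authors' counting treated reads in the overlap is not given in the sources used here, so counts of HBE1 and HBG2, and folds made from them, may include each other's reads or lack shared ones. With 3 counts assumed for the wild-type group, the HBG2 ratio would be 126, a value without an interval. In DMSO, HBG2 had 425 counts in the MED31 line and 3 in wild type. That ratio was 128, with an exact 95% counting interval of 43.4 to 621. Of the 2 globin genes tested beside the members 1 rose between these libraries, and the other, HBQ1 (theta-globin), was not called. ALAS2, the red cell form of the first heme enzyme, had 154 counts in MED31 dTAG7 libraries and 1 in wild-type dTAG7 libraries, a ratio of 138 with an exact 95% counting interval of 24.4 to 5490. HBG2 and ALAS2 were singled out after their values were seen. GATA1, a factor needed for red cell and megakaryocyte development, averaged 33.1 ± 2.23 spike-in CPM in MED31 dTAG7 libraries and 1.08 ± 0.683 in wild-type dTAG7 libraries (4.83 ± 0.38, edgeR adjusted p 6.34e-16). GFI1B, a repressor of the same lineages, was 2.59 ± 0.40 higher in the MED31 line with dTAG7. BCL11A, a repressor of gamma-globin, was 0.74 ± 0.12 lower and LYL1, a hematopoietic factor, 0.71 ± 0.13 lower. Among 15 tested red cell factors 5 rose and 3 fell, where 17.2% of all genes were called in either direction. Their median was 0.19, against -0.05 over all genes.

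Red cell membrane genes went both ways. RHAG, part of the Rh complex, was 1.88 ± 0.29 higher and XK, a membrane protein linked to the Kell antigen, 1.75 ± 0.21 higher in the MED31 line with dTAG7 than in wild type with dTAG7. GYPC (glycophorin C) was 1.43 ± 0.12 lower and ADD2 (beta-adducin) 0.41 ± 0.13 lower. Of 12 tested membrane genes 4 rose and 2 fell (median -0.03), where 17.2% of all genes were called in either direction. Of 23 tested genes of heme synthesis, breakdown and transport 5 rose and 3 fell (median 0.01). SLC25A37 (mitoferrin 1, which brings iron into mitochondria) rose by 0.91 ± 0.11 and HMOX1, which breaks heme down, by 0.79 ± 0.20, while FLVCR2 fell by 1.12 ± 0.27. SLC40A1 (ferroportin, the iron exporter) rose by 2.23 ± 0.32 and FTH1 (ferritin heavy chain) by 0.74 ± 0.22. These were the only calls among 12 tested iron genes, a share close to the 17.2% over all genes.

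Markers of several cell types differed between the MED31 line and wild type, but part of these differences was shared by other tagged lines. Summed over HBG2, ALAS2, EPOR and RHAG, the red cell markers with a row, levels were 69.3 to 93.9 spike-in CPM in MED31 dTAG7 libraries and 6.49 to 9.31 in wild-type dTAG7 libraries, where HBG2 was at 0. HBG2 and ALAS2 drew most of their counts from the MED31 line and may have a row only through it. This sum is therefore no support for a cell type. EPOR averaged 2.03 ± 0.264 spike-in CPM in MED31 and 1.20 ± 0.499 in wild-type dTAG7 libraries, and RHAG 25.3 ± 4.89 and 6.92 ± 1.65 (SD, n = 3). The megakaryocyte marker ITGA2B was at 7.77 to 12.4 spike-in CPM in MED31 dTAG7 libraries and 0.857 to 3.24 in wild-type dTAG7 libraries. The 5 eosinophil, basophil and mast cell markers with a row summed to 195 to 227 spike-in CPM in MED31 dTAG7 libraries and 82.5 to 106 in wild-type dTAG7 libraries. The 3 monocyte markers summed to 13.7 to 17.8 spike-in CPM in MED31 dTAG7 libraries and 38.3 to 45.4 in wild-type dTAG7 libraries. In DMSO their sum was as low in the MED12 line (13.0 to 21.6) and the MED14 line (19.2 to 20.3) as in the MED31 line (14.3 to 20.4). The 3 granulocyte markers overlapped, at 31.8 to 40.1 spike-in CPM in MED31 and 35.1 to 38.3 in wild-type dTAG7 libraries. The 3 progenitor markers with a row, CD34, KIT and ANGPT1, summed to 379 to 398 spike-in CPM in MED31 and 442 to 467 in wild-type dTAG7 libraries. KIT went the other way to this sum, at 228 ± 16.2 spike-in CPM in MED31 and 52.4 ± 5.70 in wild-type dTAG7 libraries (SD, n = 3). CD34 averaged 57.8 ± 3.25 in MED31 and 150.6 ± 2.22 in wild-type dTAG7 libraries (SD, n = 3). The part of these differences in the levels of the 9 genes was not tested.

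Within the MED31 line, dTAG7 changed no member past the threshold, where 3.11% of all genes were called (4.48% under TMM). HBE1 averaged 139 ± 8.29 spike-in CPM with dTAG7 and 177 ± 17.7 with DMSO (SD, n = 3), and all 3 dTAG7 libraries were below all 3 DMSO libraries. The fold change of -0.35 ± 0.18 was not called (edgeR adjusted p 0.353). HBD, ANK1 and CPOX gave -0.23 ± 0.18, -0.25 ± 0.22 and 0.13 ± 0.19, with overlapping libraries. No member reached an unadjusted p of 0.05 in edgeR there, and DESeq2 and TMM also called 0. Of 15 tested red cell factors 6 fell and none rose with dTAG7 in the MED31 line (median -0.37), and 7 fell under TMM. GATA1 was among those not called, at -0.46 ± 0.23 (edgeR adjusted p 0.328). Of 23 tested heme genes 2 fell there, and no membrane or iron gene was called.

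The pattern over the 10 DMSO groups was compared with that of 10116 genes by Pearson correlation of log2 TMM CPM, as a description with no test; the 10 points share 1 experiment and 1 scaling. HBD and ANK1 were each other's closest gene (r = 0.98, and 0.92 over the 9 other groups). TIMP3, an inhibitor of metalloproteinases, was near to all 3 genes, with r = 0.96 for HBE1 and 0.97 for HBD and ANK1. Nearest to HBE1 were CALB1, a calcium-binding protein (r = 0.98), NET1 (0.97), TIMP3, KCNH2 (0.95) and LXN (0.95). Without the MED31 group, on which HBE1 was chosen, r with HBE1 was 0.85 for CALB1, 0.78 for NET1, 0.67 for TIMP3, 0.42 for KCNH2 and 0.43 for LXN. In DMSO libraries of the CDK9, MED1, MED6, MED10, MED26 and MED28 lines HBE1 had 0 to 8 counts and CALB1 0 to 15. HBD had 0 to 6 counts there and ANK1 0 to 5. Without the MED31 group, r values of HBE1, HBD and ANK1 thus rest largely on levels near the detection limit. CALB1 had 324 TMM CPM in MED31 DMSO libraries and at most 2.60 as the mean of another line. GDF15, TBPL1 and LRP12 completed the list of HBD, and MAGI1, GDF15 and BMP2K that of ANK1, all at r of 0.96 or 0.97, and at 0.74 to 0.92 without the MED31 group. Among the heme enzymes CPOX had r = 0.95 with HBE1, but 0.43 without the MED31 group. ALAD ran the other way to HBD (r = -0.84, and -0.86 without the MED31 group).

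In the MED14 line with dTAG7, 5 of the 9 members fell on the spike-in scale, where 65% of all genes were called and the median gene fell by 0.69. CPOX had 29.6, 34.5 and 28.0 spike-in CPM with dTAG7, against 50.7, 65.4 and 58.8 with DMSO. The groups did not overlap (-0.95 ± 0.22, edgeR adjusted p 1.49e-04). UROS had 21.8, 23.8 and 19.4 spike-in CPM with dTAG7, against 44.8, 35.6 and 35.3 with DMSO (-0.84 ± 0.14, edgeR adjusted p 2.81e-07). UROD averaged 51.8 ± 3.72 spike-in CPM with dTAG7 and 71.5 ± 7.70 with DMSO (SD, n = 3), a fall of -0.47 ± 0.17. HBD had 6.60, 2.92 and 6.63 spike-in CPM with dTAG7, against 8.22, 12.2 and 10.6 with DMSO. Its fold change was -0.83 ± 0.30 with an edgeR adjusted p of 0.0131. ANK1 had 9, 4 and 7 counts with dTAG7 and 13, 16 and 13 with DMSO (-1.04 ± 0.48). Its edgeR adjusted p of 0.04995 is at the threshold, and leaving out any 1 of the 6 libraries ended the call (0.0668 to 0.115). HBD was no longer called without DMSO replicate B (0.081) or without dTAG7 replicate B (0.066). UROD was no longer called without DMSO replicate A (0.0568), DMSO replicate C (0.0508) or dTAG7 replicate A (0.0721). With each library left out the count of members called was 3 or 4.

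ALAS1 averaged 15.8 ± 0.956 spike-in CPM with dTAG7 and 15.8 ± 2.61 with DMSO in the MED14 line (SD, n = 3), a difference of 0.00 ± 0.25. ALAD, FECH and HBE1 gave -0.20 ± 0.29, -0.20 ± 0.17 and -0.39 ± 0.42 and were not called. Under TMM, which sets the median gene near 0, no member fell and ALAS1 and FECH rose, by 0.69 ± 0.21 and 0.49 ± 0.14 (edgeR adjusted p 0.00873 and 0.00556; 30% of all genes called). Among related genes HMOX1 was at -1.72 ± 0.22, and 19 of 23 tested heme genes fell, with a median of -0.92. Of 15 red cell factors 12 fell, among them MYB at -2.91 ± 0.12 and LYL1 at -2.66 ± 0.15. Of 12 membrane genes 9 fell, with SLC2A1, the glucose transporter GLUT1, at -1.86 ± 0.28 and RHAG at -1.73 ± 0.30, and 11 of 12 iron genes fell, among them STEAP3 at -1.96 ± 0.41 and PCBP1 at -1.41 ± 0.20. These counts stand beside the 65% of all genes called, and the iron genes' median of -0.66 was close to that of all genes. Under TMM 9 heme genes fell and 2 rose (median -0.24), 10 red cell factors fell and 1 rose (-1.29), 3 membrane genes fell and 1 rose (-0.18), and 3 iron genes fell and 2 rose (0.02). HMOX1, MYB, LYL1, SLC2A1, RHAG, STEAP3 and PCBP1 were called lower under TMM too.

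When CDK9 or BET proteins were targeted, all 6 heme enzymes fell, and HBE1, HBD and ANK1 were not called on the spike-in scale. Almost every gene fell in these libraries: 95.6% of genes were called in the CDK9 line, 96.5% with THAL-SNS-032 and 97.5% with dBET6, with medians of -2.93, -2.86 and -3.67. The median of the 6 enzymes was -3.07 in the CDK9 line, -2.97 with THAL-SNS-032 and -3.57 with dBET6. CPOX had 2.47, 2.15 and 5.10 spike-in CPM with dBET6, against 53.5, 81.2 and 73.1 with DMSO in wild type. This fall of -4.45 ± 0.28 was the largest of the members with dBET6 (edgeR adjusted p 1.04e-22). With THAL-SNS-032, CPOX had 11.1, 5.78 and 8.92 spike-in CPM (-3.05 ± 0.25). ALAS1 had 0.762, 0.417 and 1.31 spike-in CPM with dTAG7 in the CDK9 line, against 14.5, 18.9 and 15.5 with DMSO. Its fall of -4.22 ± 0.40 was the largest of the members there (edgeR adjusted p 6.02e-15). FECH fell least of the enzymes in the CDK9 line, at -2.00 ± 0.20, with 10.02, 11.7 and 11.03 spike-in CPM with dTAG7 and 35.4, 51.4 and 40.5 with DMSO.

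Under TMM the enzymes that stood apart from the median gene were fewer. In the CDK9 line ALAS1 at -1.42 ± 0.41 and UROS at -0.40 ± 0.17 stayed lower and FECH at 0.83 ± 0.17 and ANK1 at 2.56 ± 0.71 were called higher, so 4 of 9 members were called where 48.1% of genes were. With dBET6, CPOX at -0.89 ± 0.26 was the 1 enzyme called, and HBE1, HBD and ANK1 were called higher, at 2.52 ± 0.92, 3.22 ± 0.77 and 3.91 ± 0.86 (4 of 9 members, 41.4% of genes). With THAL-SNS-032, no enzyme was called and the same 3 genes were called higher, at 2.46 ± 0.81, 2.41 ± 0.80 and 4.13 ± 0.73 (3 of 9 members, 30.1% of genes). THAL-SNS-032 and dBET6 shared the wild-type DMSO libraries. The counts behind these 3 genes were low. HBE1 had 3, 3 and 1 counts with dBET6 and 2, 2 and 6 with THAL-SNS-032, against 2, 1 and 4 with DMSO. ANK1 had 0, 2 and 9 counts with dBET6 and 4, 5 and 10 with THAL-SNS-032, against 1, 1 and 2 with DMSO. On the spike-in scale ANK1 was at 0.44 ± 0.91 with dBET6 and 1.39 ± 0.82 with THAL-SNS-032. In these 6 libraries the mean count was 0.524% of the MED31 mean for HBE1, 0.982% for HBD and 2.48% for ANK1, and CALB1 had 0.658%. The part of reads carried over between libraries in this was not tested.

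On the spike-in scale most related genes fell with the enzymes, as most genes did. Of 23 tested heme genes 22 fell with dBET6, where 97.5% of all genes were called, and 22 with THAL-SNS-032, where 96.5% were. Under TMM 10 fell and 5 rose with dBET6, and 6 fell and 1 rose with THAL-SNS-032. PPOX, the enzyme between CPOX and FECH, was at -5.39 ± 0.43 and HMOX1 at -4.99 ± 0.37 with dBET6. FLVCR2 was at -4.79 ± 0.45 and SLC25A38, a mitochondrial glycine carrier, at -4.02 ± 0.24 with THAL-SNS-032. Of 15 tested red cell factors 14 fell and 1 rose with each compound. Under TMM 8 fell and 1 rose with dBET6, and 7 fell and 1 rose with THAL-SNS-032. TAL1, a master factor of blood cells, was at -5.41 ± 0.16 with dBET6, and BCL11A was at -5.20 ± 0.17 with dBET6 and -4.08 ± 0.15 with THAL-SNS-032. HBQ1 (theta-globin), the 1 other globin gene tested beside HBG2 and the members, was at -3.10 ± 0.20 with dBET6 and -2.53 ± 0.20 with THAL-SNS-032, nearer 0 than the median gene in both. Under TMM HBQ1 was at 0.48 ± 0.25 and 0.31 ± 0.23 in the same order and was not called (edgeR adjusted p 0.116 and 0.314), while the other heme genes and factors named here were called lower under TMM too. On the spike-in scale 11 of 12 membrane genes and 12 of 12 iron genes fell with each compound. Under TMM more rose than fell, where 41.4% of all genes were called with dBET6 and 30.1% with THAL-SNS-032. With dBET6, 4 membrane genes rose and 2 fell, and 5 iron genes rose and 2 fell. With THAL-SNS-032, 3 membrane genes rose and 1 fell, and 3 iron genes rose and 1 fell. SLC2A1 and PCBP1 with both compounds and XK with dBET6 were called lower under both scalings. ERMAP and STEAP3 with THAL-SNS-032 and TFR2 with dBET6 fell on the spike-in scale but were not called under TMM (edgeR adjusted p 0.314, 0.28 and 0.161).

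**Figure D4:**
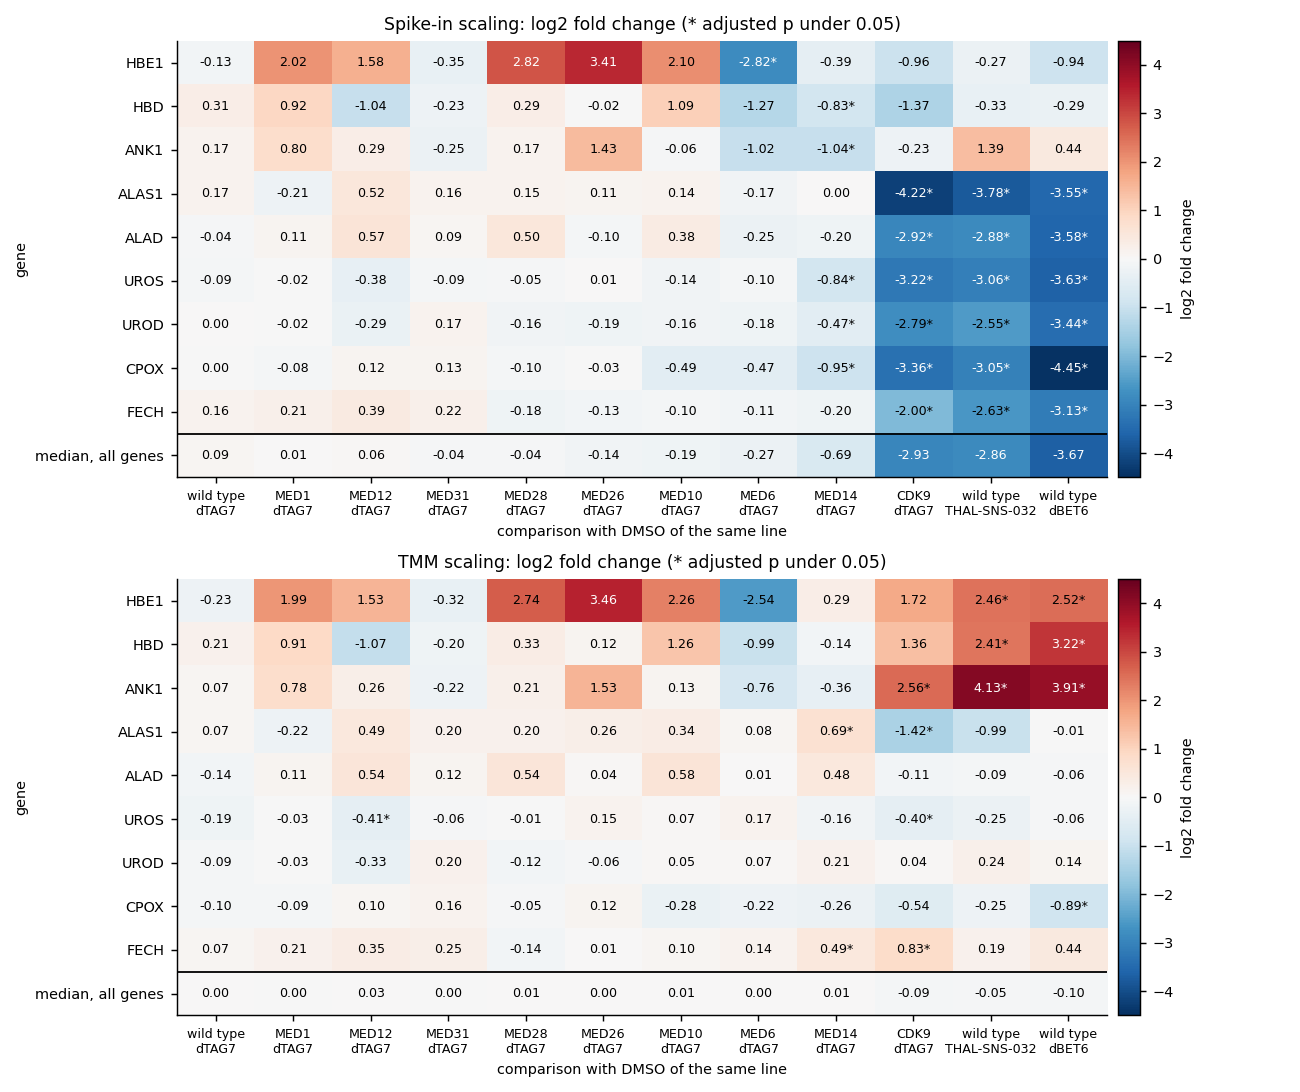
Log2 fold changes of the 9 genes and the median of all tested genes in the 12 comparisons with DMSO of the same line, under spike-in scaling (top) and TMM scaling (bottom); stars mark adjusted p under 0.05. The 6 heme enzymes are below 0 in the last 3 columns of the top panel, as is the median of all genes, and the values of HBE1, HBD and ANK1 outside the MED31 and MED14 columns rest on at most 23 counts per library.

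In the other lines dTAG7 changed few members past the threshold. In the MED6 line HBE1 was called lower, with 0, 1 and 1 counts with dTAG7 and 3, 8 and 0 with DMSO. The ratio was 0.121 with an exact 95% counting interval of 0.013 to 0.555, and the edgeR adjusted p was 0.036, where 19.2% of genes were called (6.55% under TMM, with 0 members). The libraries overlapped, and the call was lost without DMSO replicate A, DMSO replicate B or dTAG7 replicate A (edgeR adjusted p 0.0787, 0.433 and 0.202). In the MED10 line no member was called although 21.7% of genes were (18.1% under TMM). CPOX had the lowest p of the enzymes there, at 47.2 ± 3.52 spike-in CPM with dTAG7 and 66.6 ± 1.34 with DMSO (SD, n = 3), with all 3 dTAG7 libraries below all DMSO libraries. Its fold change was -0.49 ± 0.21 with an edgeR adjusted p of 0.0935. In the MED12 line UROS averaged 33.7 ± 2.06 spike-in CPM with dTAG7 and 43.7 ± 7.01 with DMSO, also without overlap. It was not called on the spike-in scale (-0.38 ± 0.13, edgeR adjusted p 0.0773, 4.97% of genes called) but was under TMM (-0.41 ± 0.12, edgeR adjusted p 0.02, 8.76% of genes called) and without DMSO replicate B (-0.51, edgeR adjusted p 0.0179). HBD in the MED12 line had 4, 13 and 10 counts with dTAG7 and 17, 23 and 14 with DMSO (-1.04 ± 0.41, edgeR adjusted p 0.138).

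No member was called with dTAG7 in the MED26 line (3.14% of genes called, 2.37% under TMM), the MED28 line (4.84% and 6.43%), the MED1 line (0% and 0.00776%) or wild type (0% and 0%). At an unadjusted edgeR p under 0.05 there was 1 member each in the MED26, MED28 and MED1 lines, 2 in the MED10 line, 5 in the MED12 line and none in wild type. The share of all genes at that unadjusted threshold was not counted, so these counts are no result about the members. DESeq2 called 0 members in the MED1, MED10, MED12, MED26 and MED28 lines and in wild type. The 1 member in the MED26, MED28 and MED1 lines was HBE1. HBE1 had 3, 6 and 5 counts with dTAG7 and 0, 1 and 0 with DMSO in the MED26 line, a ratio of 13.8 with an exact 95% counting interval of 2.1 to 585. In the MED28 line it had 7, 3 and 1 counts with dTAG7 and 1, 0 and 0 with DMSO, a ratio of 8.74 (1.27 to 376). In the MED1 line it had 1, 6 and 4 counts with dTAG7 and 1, 1 and 1 with DMSO, a ratio of 4.41 (1.17 to 24.6). In the MED10 line it had 6, 2 and 2 counts with dTAG7 and 1, 0 and 1 with DMSO, a ratio of 4.79 (1.02 to 45). The intervals cover counting error only, and the edgeR adjusted p-values were 0.0655, 0.192, 1 and 0.148 in the order given. Wild-type cells had 1, 3 and 3 counts with dTAG7 and 2, 1 and 4 with DMSO.

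**Figure D5:**
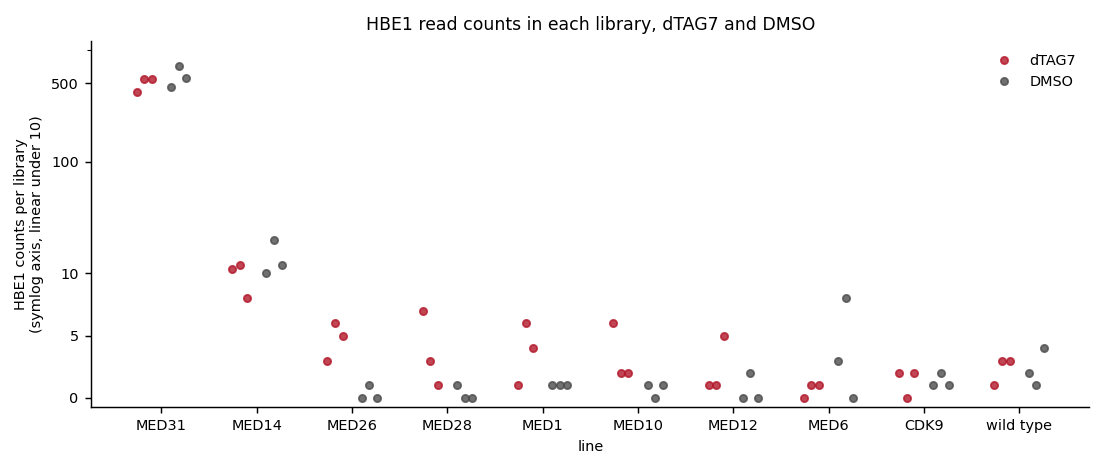
HBE1 read counts in each library with dTAG7 (red) and DMSO (grey) by line, on an axis that is linear under 10 and logarithmic above. MED31 libraries hold 419 to 709 counts, MED14 libraries 8 to 20, and no other library more than 8.

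Whether the dTAG7 effect differed among the 8 Mediator lines was tested for each gene with an F test of 7 contrasts. On the spike-in scale 3 of the 9 members were called, where 46.2% of all genes were. HBE1 had an edgeR adjusted p of 3.99e-04, UROS of 0.00175 and CPOX of 0.0183. For UROS the fold changes ran from -0.84 ± 0.14 in the MED14 line to 0.01 ± 0.13 in the MED26 line, and for CPOX from -0.95 ± 0.22 in the MED14 line to 0.13 ± 0.19 in the MED31 line. For HBE1 they ran from -2.82 ± 0.99 in the MED6 line to 3.41 ± 1.09 in the MED26 line, both on few counts. Under TMM, HBE1 alone was called (edgeR adjusted p 0.00117, 12.4% of genes called), and UROS and CPOX had adjusted p-values of 0.144 and 0.533. HBD, ANK1, ALAS1, ALAD, UROD and FECH were not called under either scaling.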

How the data were processed

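RNA was read by QuantSeq (single reads of 50 bases) in 66 KBM7 libraries, 3 in each of 22 groups of line and treatment. The authors deposited whole-number counts per gene and spike-in; hg38, STAR 2.5.2b, HTSeq 0.6.0 and bedtools 2.26.0 are named in the submitters' processing notes, and the strand setting is not given in the sources used here. Every gene of the table has at least 70 counts and is above 0 in at least 20 libraries, so a gene detected in 1 group alone has no row. A table of loess-normalized values was not used.

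The 9 genes and the lists of related genes were chosen with earlier results of these data known, partly for a high level in MED31 DMSO libraries, so that level has no test. Counts were tested in edgeR 4.0.16 (R 4.3.3) with its quasi-likelihood F test, 1 mean for each of the 22 groups, 44 residual degrees of freedom and spike-in totals (37 ERCC and 7 SIRV) as library sizes, after filterByExpr, which left 12515 genes (12892 under TMM). SEs were taken from each fold change and its F value. Members are always named; from each other list up to 2 rising and 2 falling genes with the largest change and a mean of at least 5 CPM, apart from 1 gene that is not reported here. Ratios on 1 to 3 counts carry an exact 95% interval of counting error. Alternatives were TMM, median-of-ratios factors, no filter, the replicate letter as a block, the 6 libraries alone, DESeq2 1.42.0 and leaving out each library. Same-lettered libraries did not deviate together (r from -0.37 to 0.12; 0 of 13 comparisons had every r over 0.1), so letters do not pair libraries. The scripts were tested on simulated counts with known changes. Plots were made with matplotlib 3.10.9.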

Additional observations from a re-analysis of the deposited data

Results flagged for a closer look

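For 3 of the 9 genes the dTAG7 effect differed among the 8 Mediator lines in edgeR's F test on the spike-in scale, where 46.2% of all genes were called. HBE1 had an adjusted p of 3.99e-04, with more counts with dTAG7 than with DMSO in the MED26, MED28, MED1, MED10 and MED12 lines and fewer in the MED6 line, on 0 to 8 counts per library. UROS had an edgeR adjusted p of 0.00175 and CPOX of 0.0183, with the lowest fold change of both in the MED14 line, where the median gene was at -0.69. Under TMM only HBE1 was called among these 3 genes.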

How the results depend on the processing

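Scaling decided most calls outside the MED31 line. Under TMM the count of the 9 genes called was 0 in the MED6 line, 1 in the MED12 line, 2 in the MED14 line, 3 with THAL-SNS-032 and 1 in the F test among Mediator lines. Under median-of-ratios factors it was 3 in the CDK9 line, 0 in the MED6 line, 1 in the MED12 line, 2 in the MED14 line, 3 with THAL-SNS-032 and 1 in the F test. Shares over all genes were not counted for median-of-ratios factors or the alternatives below, so those counts only describe how calls moved. Both scalings set the median gene near 0, which turned the sign of some log2 fold changes that were negative on the spike-in scale. Under TMM they became 2.56 (ANK1), 0.036 (UROD) and 0.83 (FECH) in the CDK9 line, 0.21 (UROD) and 0.49 (FECH) in the MED14 line, and 2.52 (HBE1), 3.22 (HBD), 0.14 (UROD) and 0.44 (FECH) with dBET6. With THAL-SNS-032 they became 2.46 (HBE1), 2.41 (HBD), 0.24 (UROD) and 0.19 (FECH). Under median-of-ratios factors they became 2.67 (ANK1), 0.14 (UROD) and 0.93 (FECH) in the CDK9 line, 0.25 (UROD) and 0.52 (FECH) in the MED14 line, and 2.53 (HBE1), 2.48 (HBD), 0.31 (UROD) and 0.25 (FECH) with THAL-SNS-032. With dBET6 they became 2.66 (HBE1), 3.36 (HBD), 0.13 (ALAS1), 0.084 (ALAD), 0.088 (UROS), 0.28 (UROD) and 0.58 (FECH). UROD in MED31 DMSO over the median of other lines was 0.01 on the spike-in scale and -0.067 under TMM. With the 6 libraries alone the count was 0 in the MED6 line and 1 in the MED10 line; the cause was not tested. Leaving out each library, it ran from 0 to 1 in the MED12 line, 3 to 4 in the MED14 line, 0 to 2 in the MED6 line, 6 to 7 with THAL-SNS-032 and 4 to 5 between the MED31 line and wild type with dTAG7. HBE1, HBD, ANK1 and CPOX stayed called there under every alternative run. No filter and DESeq2 moved no count by over 1.5 times. The replicate block gave 4 in the MED14 line, where ANK1 was at -1.05 (edgeR adjusted p 0.0532), and changed no other call. Outside the MED31, MED14 and MED12 lines HBE1, HBD and ANK1 had 0 to 10 counts per library, so their differences there are at the limit of this depth.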
